A study of Mus musculus with 10 samples.

Results

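The enzymes described here conjugate, reduce or recycle with glutathione and thioredoxin, or remove superoxide and peroxide, and their transcripts were followed in mouse brain between 1 and 8 weeks of age. Members were all probe sets annotated with a single symbol that starts with Gst, Gpx, Prdx or Txn, or that is Sod1, Sod2, Sod3, Cat, Gclc, Gclm, Gsr, Gss, Nqo1 or Hmox1. This gave 92 of 22626 probe sets and 54 of 12393 genes. After a filter on dim probe sets, 66 of the 92 probe sets and 40 of the 54 genes could be tested, out of 13576 probe sets and 8148 genes in all. The rule takes in genes by symbol alone, so a few members, such as Txnl4a, a spliceosome protein gene, have no known part in peroxide removal.

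Total RNA from brain of the inbred mouse strain C57BL/6 was hybridised to Affymetrix MOE430A arrays, which read each transcript with 1 or more sets of short oligonucleotide probes. At 8 weeks there were 4 arrays, 2 of each sex label, and at 1 week 6 arrays, 3 of each. The labels name no genotype or treatment, and they give age and sex as the factors of interest. They number the brains but do not state that these came from separate animals, so all p-values measure the spread between these samples, and the number of arrays limits the precision.

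Glutathione is a tripeptide made by glutamate-cysteine ligase and then by glutathione synthetase, and it serves as the electron donor of glutathione peroxidases and as the substrate that glutathione transferases attach to reactive compounds. Peroxiredoxins take their electrons mainly from thioredoxin, which is reduced in turn by thioredoxin reductase, while catalase breaks down hydrogen peroxide without such a donor and superoxide dismutases make hydrogen peroxide out of superoxide. In brain, astrocytes are known as the main suppliers of glutathione precursors to neurons, and many genes of this group are known targets of the transcription factor NRF2.

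Trimmed means of the deposited intensities ran from 138 to 236 at 1 week and from 255 to 318 at 8 weeks, so the arrays were quantile-normalized. Array brightness and age cannot be told apart here. On the log2 scale, arrays of 1 group correlated at 0.973 to 0.981 and arrays of different ages at 0.933 to 0.951. At 1 week, 4 of the 6 arrays had sex chromosome transcripts that opposed their sex label and 1 more carried those of both sexes. Arrays are therefore named by their label, which at 1 week does not give the sex of the animal. All changes are log2 differences, 8 weeks minus 1 week, of normalized intensity plus a pseudocount of 24, which understates the change of dim genes, and a change was called at an adjusted p under 0.05 in limma with Benjamini-Hochberg adjustment over all 13576 probe sets. A gene stands for its brightest probe set. Values at 8 weeks are listed as labelled female replicates 1 and 2, then labelled male replicates 1 and 2.

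On the normalized scale, 7 of 11 glutathione transferase genes and 2 of 4 genes of glutathione synthesis and recycling were higher at 8 weeks. Cytosolic thioredoxin, the 3 thioredoxin reductases, catalase and the peroxiredoxins Prdx2 and Prdx4 were lower, though on the deposited scale the median of thioredoxins and their reductases turned to 0.09, and Txn1 was the one among these genes to keep its call. Of the 40 genes tested, 12 rose, 14 fell and 14 did not pass, so 65% were called, against 45.9% of all genes tested. By direction, 21.9% of all genes were higher and 24% lower. A change of at least 2-fold upward was seen for Gstm1 and Gsta4 (3.07% of all genes) and downward for 0 members (2.77% of all genes). The median change of the 40 genes was -0.07, beside -0.02 over all genes, and the median size of change was 0.35, beside 0.25. Called or not, the arrays of the ages did not overlap for 12 genes that were higher and 12 that were lower at 8 weeks, against 17.5% and 18.4% of all genes and 35.9% in either direction. The 12 higher include Prdx3, which did not pass, and leave out Gpx4, a riser by its brighter probe set whose ages overlapped. By probe set, 18 of 66 were higher and 24 lower, where 22% and 24% of all probe sets were. Because members were kept by their brightness over all arrays, these shares describe the tested genes and not the 54. Without the filter, 12 genes were higher and 12 lower out of 54; by probe set 20.7% of members were higher and 25% lower, beside 14.7% and 15.3% of all probe sets. In whole brain, a lower value can come from fewer cells of a type or from less RNA per cell, and these cannot be told apart.

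Quantile normalization makes each direction relative to the rest of the array. Without it, all probe sets together shifted by a median of 0.47, and 20 members were then higher and 2 lower. By probe set, 53% of members were higher and 4.55% lower on that scale, beside 63.9% and 4.63% of all probe sets. All 12 rises kept their call on that scale, while of the 14 falls Txn1 (-0.43) and Gsto1 (-0.33) kept theirs. Spike-in scaling, which was added once the data had been seen and moved the median of all probe sets by 0.15, gave 9 members higher and 4 lower, and by probe set 24.2% and 10.6% of members beside 19.8% and 7.46% of all. Every member gene that lost its call with it had the same SE, 0.20, and so did Gstm4, Gstz1 and Txn2, which had no call to lose. A call could thus be lost although the change grew, as for Gss, Gstp1 and Gstt1.

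**Figure D1:**
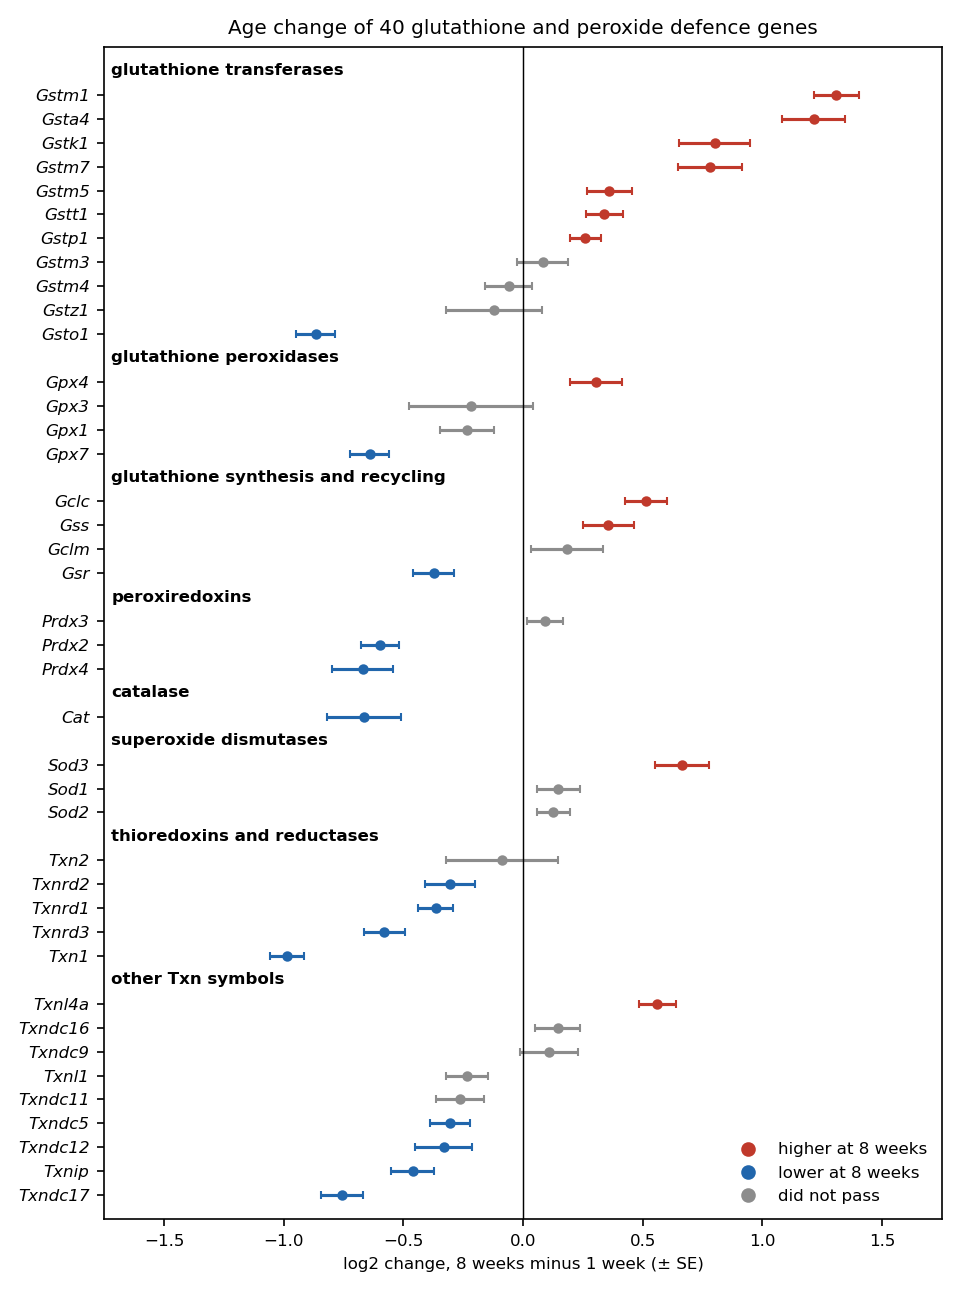
Log2 change at 8 weeks relative to 1 week (horizontal axis, point and SE bar) of the 40 tested genes, grouped by family and coloured by the call. Transferase points lie mostly right of 0, with Gstm1 at 1.31, and thioredoxin and peroxiredoxin points mostly left of it on this normalized scale, with Txn1 at -0.99.

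Glutathione transferases made up the largest family, with 18 genes on the array and 11 tested. Of these 7 rose, 1 fell and 3 did not pass, and the median change was 0.34. Gstm1, a mu-class transferase prominent in astrocytes, read 1389, 1625, 1593 and 1558 at 8 weeks, against a lowest of 547, a median of 598 and a highest of 711 at 1 week. Every array of 8 weeks lay far above every array of 1 week. The change was 1.31 ± 0.10 (adjusted p = 4.24e-06), in limma, with means ± SD of 1541 ± 105 over the 4 arrays of 8 weeks and 609.6 ± 63.5 over the 6 arrays of 1 week. All 4 tested Gstm1 probe sets rose, by 0.73 to 1.31. The ending of a probe set name shows where its probes match other transcripts too, and 2 of these 4, the brightest included, are of the x type, so part of their signal may belong to close relatives such as other Gstm genes.

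Gsta4, the alpha-class transferase known for conjugating the lipid peroxidation product 4-hydroxynonenal, read 302, 329, 365 and 301 at 8 weeks, against a lowest of 86.8, a median of 135 and a highest of 149 at 1 week. The ages stood well apart, with a change of 1.21 ± 0.13 (limma adjusted p = 4.95e-05). Gstk1, a transferase of mitochondria and peroxisomes, read 129, 216, 163 and 148 at 8 weeks, against 58.7 to 112 at 1 week with a median of 83.6. Its ages did not overlap either, though the 8-week arrays spread widely, and the change was 0.80 ± 0.15 (limma adjusted p = 0.00152).

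The other mu-class genes did not move as one. Gstm7 read 165, 199, 178 and 171 at 8 weeks, against 69.6 to 115 at 1 week with a median of 100.3, a change of 0.78 ± 0.13 (limma adjusted p = 0.00101). Its dimmer probe set read 78.1 to 131 at 8 weeks and 64.1 to 134 at 1 week and did not pass (-0.01 ± 0.16), so the 2 readings of this gene differ. Gstm5, a mu-class transferase known from brain and testis, read 1481, 1648, 1709 and 1359 at 8 weeks, against a lowest of 1071, a median of 1199 and a highest of 1322 at 1 week. The gap between the ages was small, and the change was 0.36 ± 0.09 (limma adjusted p = 0.0102). Gstm4 (-0.06 ± 0.10) and Gstm3 (0.08 ± 0.11) did not pass. Gstm3 read 123, 110.1 and 127 in the arrays labelled female and 209, 212 and 192 in those labelled male at 1 week, and 211, 142, 177 and 148 at 8 weeks. The labels separate at 1 week although 4 of those 6 arrays carry sex transcripts that oppose them.

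Gstp1, the pi-class transferase, read 2357, 2205, 2369 and 2205 at 8 weeks, against a lowest of 1808, a median of 1898 and a highest of 2008 at 1 week. All arrays of 8 weeks were above all arrays of 1 week by a narrow margin, with a change of 0.26 ± 0.07 (limma adjusted p = 0.00879). Gstt1, a theta-class transferase, read 143, 161, 149 and 169 at 8 weeks, against 109.8 to 128 at 1 week with a median of 116. The ages did not overlap and the change was 0.34 ± 0.08 (limma adjusted p = 0.005). Gstz1, which also works in tyrosine breakdown, read 49.4 to 116 at 8 weeks and 72.2 to 144 at 1 week and did not pass (-0.12 ± 0.20). In a model of age only, fitted after dropping the 4 arrays of 1 week whose sex transcripts opposed their label, Gstm5 (limma adjusted p = 0.0757), Gstp1 (0.106) and Gstt1 (0.113) lost their calls at changes of 0.34, 0.25 and 0.25. Only labelled female replicate 3 and labelled male replicate 1 remained there at 1 week. Of all probe sets, 2069 were higher and 1973 lower, where the fit of all arrays gave 2993 and 3253, so fewer calls were made throughout. With spike-in scaling Gstp1 and Gstt1 lost them too, although their changes were larger there, at 0.43 and 0.49, each with an SE of 0.20. Over the alternatives that tested them, the adjusted p ran from 5.33e-05 to 0.0757 for Gstm5, 8.15e-05 to 0.106 for Gstp1 and 7.93e-05 to 0.113 for Gstt1.

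Gsto1, the omega-class transferase, which reduces dehydroascorbate and opens glutathione-protein bonds rather than conjugating, went against the family. Its values were 347, 313, 321 and 357 at 8 weeks, against a lowest of 571, a median of 627 and a highest of 698 at 1 week. No array of 8 weeks came near any of 1 week, and the change was -0.87 ± 0.08 (limma adjusted p = 1.95e-05). The other Gsto1 probe set read 162 to 249 at 8 weeks and 313 to 415 at 1 week and fell too (-0.72 ± 0.12). The call held on every scale tried.

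**Figure D2:**
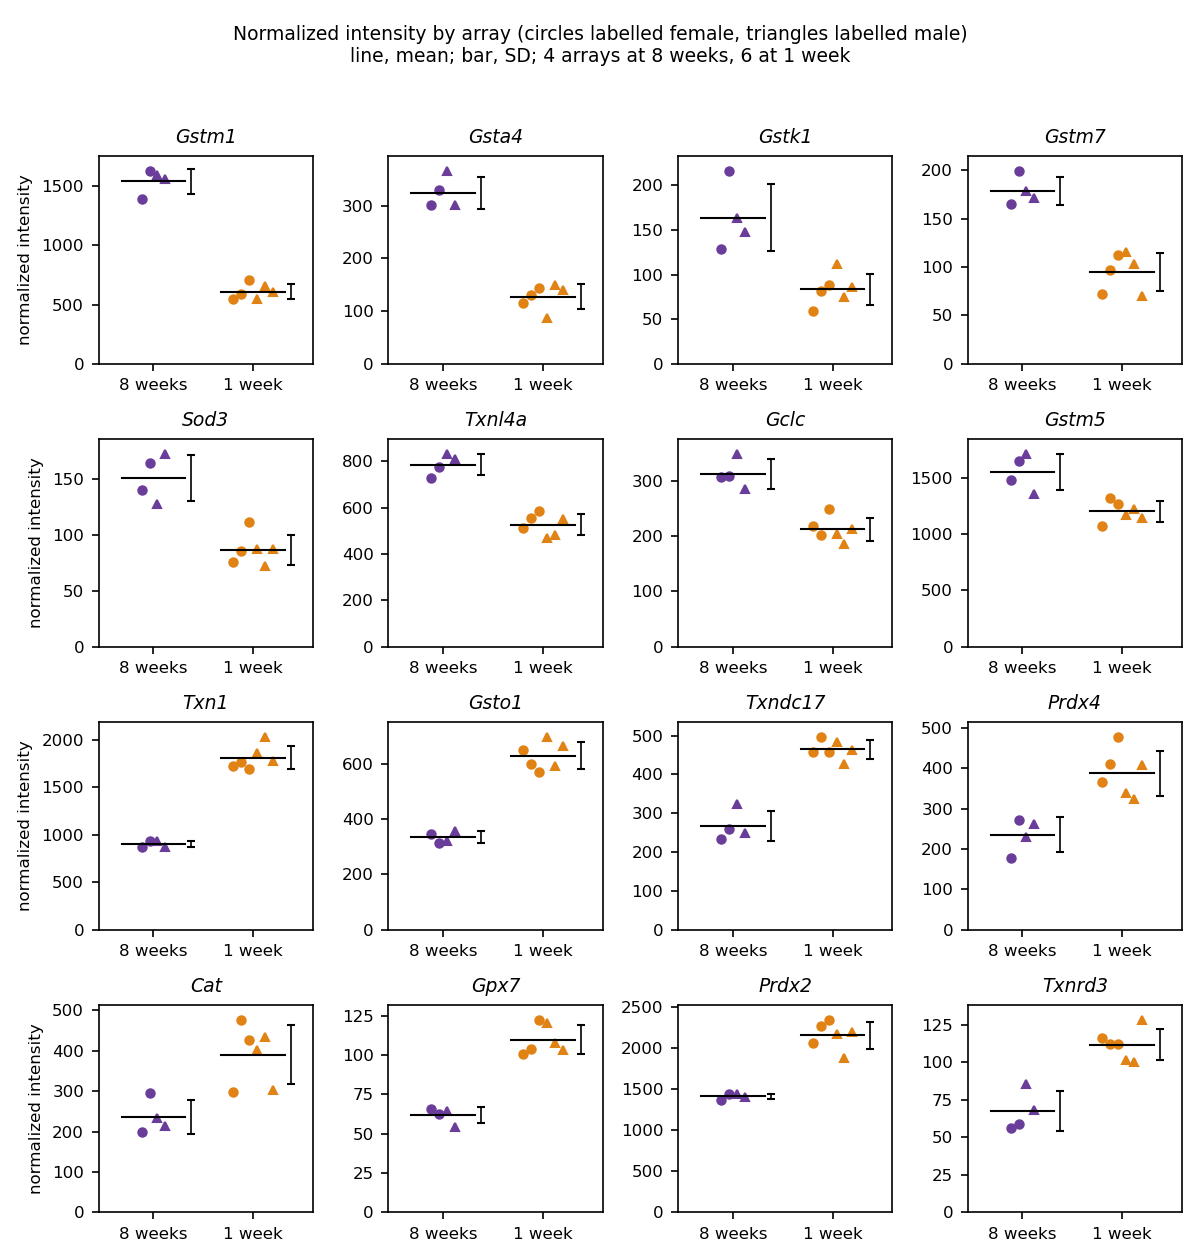
Normalized intensity (vertical axis, each panel with its own scale starting at 0) of 16 members in each array, at 8 weeks on the left and 1 week on the right; circles are labelled female, triangles labelled male, the line is the mean and the bar the SD. The 16 were picked as the largest rises and falls among called members. In each of the 16 panels the points of 8 weeks and 1 week do not overlap, which held for 35.9% of all genes tested. Gpx4, Txnrd2 and Txndc12, called with overlapping ages, are not shown.

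RefSeq promoters on GRCm38.p6 were matched for 46 of the 54 genes and searched for TGACNNNGC, the core of the antioxidant response element through which NRF2 acts, on both strands of the 250 bases before the start of transcription. The letters were found in a promoter of 8 of the 46 genes, 17.4%, and of 3112 of all 27025 genes with a promoter, 11.5%. A gene was counted once, if any of its promoters held them. Of the matched genes that rose, 2 of 8 held them, and of those that fell, 2 of 13. The holders were Gclm, Gsta3, Gstm5, Gstm7, Sod1, Txndc5, Txndc11 and Txnrd1. Genes with several promoters had more chances of a match. Txndc5 and Txnrd1 had 3 each and Gstm7 and Txndc11 had 2, while Gpx4, with 4, had no match. A match is a description of the letters only. The sequences of Gstm1 and Gstm5, both on chromosome 3 and both higher at 8 weeks, are shown with those of Gclm, a subunit gene that did not pass, and of Txn1 and Gsto1, the members that fell on each scale tried. Each runs 5′ to 3′ on the strand of the gene, with the motif in capitals where there is one; only bases outside the annotated gene are given, which leaves 180 for Gclm. The Gstm1 stretch is chr3:108017974-108018223 on the minus strand, Gstm5 is chr3:107895604-107895853 on the plus strand, and Gclm is chr3:122245307-122245486 on the plus strand. Txn1 is chr4:57956412-57956661 on the minus strand and Gsto1 is chr19:47854723-47854972 on the plus strand.
Gstm1: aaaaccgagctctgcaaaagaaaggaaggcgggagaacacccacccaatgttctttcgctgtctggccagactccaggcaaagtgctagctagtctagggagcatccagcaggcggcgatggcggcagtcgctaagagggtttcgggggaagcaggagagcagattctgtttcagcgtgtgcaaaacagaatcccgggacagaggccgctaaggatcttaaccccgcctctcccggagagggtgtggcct
Gstm5: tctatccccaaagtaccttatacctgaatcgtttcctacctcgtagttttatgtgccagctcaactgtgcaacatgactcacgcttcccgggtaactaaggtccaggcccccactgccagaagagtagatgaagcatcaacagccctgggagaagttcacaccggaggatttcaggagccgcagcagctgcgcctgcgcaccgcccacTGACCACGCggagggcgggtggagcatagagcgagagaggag
Gclm: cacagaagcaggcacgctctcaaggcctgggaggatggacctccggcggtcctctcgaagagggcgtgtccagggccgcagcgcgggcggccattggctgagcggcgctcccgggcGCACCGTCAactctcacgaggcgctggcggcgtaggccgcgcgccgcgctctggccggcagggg
Txn1: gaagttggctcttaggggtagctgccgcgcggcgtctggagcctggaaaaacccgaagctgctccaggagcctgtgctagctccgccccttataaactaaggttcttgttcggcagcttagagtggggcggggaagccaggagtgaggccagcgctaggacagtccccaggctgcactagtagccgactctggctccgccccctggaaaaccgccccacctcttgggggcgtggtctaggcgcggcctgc
Gsto1: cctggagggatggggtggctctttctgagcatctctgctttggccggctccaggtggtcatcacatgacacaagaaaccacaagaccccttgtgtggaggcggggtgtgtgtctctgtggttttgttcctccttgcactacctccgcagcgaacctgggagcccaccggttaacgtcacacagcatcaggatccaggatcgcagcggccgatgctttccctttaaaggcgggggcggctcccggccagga
The Gstm5 motif reads along the strand of the gene and lies 42 bases before its start of transcription. The Gclm motif reads along the opposite strand, 134 bases before the start of transcription of its promoter. That start lies past the end of the printed Gclm stretch, which stops at the annotated gene. The letters are not in the stretches of Gstm1, Txn1 or Gsto1.

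All 4 genes of glutathione synthesis and recycling were tested, of which 2 rose, 1 fell and 1 did not pass. Gclc, the catalytic subunit of the rate-limiting ligase, read 306, 309, 348 and 284 at 8 weeks, against a lowest of 186, a median of 208 and a highest of 249 at 1 week. Its ages did not overlap, with a change of 0.51 ± 0.09 (limma adjusted p = 0.00094), and its other probe set rose by 0.58 ± 0.08. Gss, glutathione synthetase, read 92.7, 93.7, 108 and 119.5 at 8 weeks, against 55.1 to 91.2 at 1 week with a median of 77.2. The gap between its ages was small, and the change was 0.36 ± 0.11 (limma adjusted p = 0.0198). The Gss call was lost without labelled female replicate 1 (adjusted p = 0.0524), labelled female replicate 2 (0.0561) or labelled male replicate 2 (0.0693) of 8 weeks, and without the 4 arrays whose sex transcripts opposed their label (0.0849). It was also lost with the replicate number as a block (0.0507) and with spike-in scaling (0.0552). In the latter the change was larger, at 0.48, but so was its SE, at 0.20. The adjusted p ran from 0.000298 to 0.0849 over the alternatives in which Gss was tested.

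Gclm, the modifier subunit of the same ligase, did not follow Gclc. It read 284, 204, 194 and 206 at 8 weeks, against a lowest of 149, a median of 181 and a highest of 292 at 1 week. The ages overlapped, with 1 high array in each, and the change was 0.18 ± 0.15 (limma adjusted p = 0.353). Gsr, the reductase that restores oxidised glutathione, went the other way, at 241, 241, 237 and 236 at 8 weeks, against a lowest of 276, a median of 299.6 and a highest of 394 at 1 week. The arrays of 8 weeks were nearly equal and all below those of 1 week, with a change of -0.37 ± 0.09 (limma adjusted p = 0.0055), and a second probe set fell by 0.33 on the log2 scale. On the deposited scale Gsr was at 0.13, below the 0.47 of all probe sets.

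Of 8 glutathione peroxidase genes 4 were tested, and they moved in different directions. Gpx7, a peroxidase of the endoplasmic reticulum, read 65.7, 62.8, 64.3 and 54.3 at 8 weeks, against a lowest of 100.3, a median of 106 and a highest of 122 at 1 week. The ages stood apart, with a change of -0.64 ± 0.08 (limma adjusted p = 0.000137). Gpx1, the abundant cytosolic selenoenzyme, read 542, 757, 577 and 548 at 8 weeks, against 586 to 921 at 1 week with a median of 703. The 8-week arrays sat low apart from labelled female replicate 2, and the change of -0.24 ± 0.11 did not pass (limma adjusted p = 0.112). Without that array it passed (-0.35 ± 0.11, adjusted p = 0.0297, and 0.0297 to 0.942 over the alternatives that tested it). Gpx3, the plasma peroxidase, read 199.9, 377, 383 and 132 at 8 weeks and 251 to 359.8 at 1 week, so the older arrays spread to both sides of the younger ones (-0.22 ± 0.26). It passed without labelled male replicate 1 of 8 weeks (-0.56 ± 0.20, adjusted p = 0.0499, and 0.0499 to 0.988 over the alternatives that tested it), and turned to 0.13 without labelled male replicate 2.

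Gpx4, the enzyme that reduces lipid peroxides in membranes and holds back ferroptosis, gave opposite readings. Its brighter probe set read 1396, 1397, 1446 and 1375 at 8 weeks, against a lowest of 940.5, a median of 1120 and a highest of 1422 at 1 week, a change of 0.30 ± 0.11 (limma adjusted p = 0.0416). The dimmer probe set, of the x type, read 514, 491, 729 and 578 at 8 weeks, against 780.2 to 897 at 1 week, a change of -0.57 ± 0.09 (limma adjusted p = 0.000432). Ages overlapped in the first and not in the second, so no direction is given for this gene. The rise was lost in 8 of the 10 fits that left out 1 array, with adjusted p up to 0.111; it passed only without labelled female replicate 3 or labelled male replicate 2 of 1 week.

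Catalase, coded by Cat, fell in both its probe sets. The brighter read 199, 296, 234 and 214 at 8 weeks, against a lowest of 299, a median of 413 and a highest of 476 at 1 week. The ages did not overlap, but the highest array of 8 weeks nearly met the lowest of 1 week, and the change was -0.67 ± 0.16 (limma adjusted p = 0.00569). The dimmer probe set read 129, 229.7, 189.8 and 185 at 8 weeks and 315 to 458 at 1 week, with a wider gap (-0.93 ± 0.14, limma adjusted p = 0.000491). The Cat call was lost on the deposited scale (-0.15) and with spike-in scaling (-0.48, adjusted p = 0.0557, and 0.000491 to 0.41 over the alternatives that tested it).

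Of 3 peroxiredoxin genes tested, 2 fell. Prdx2, a cytosolic enzyme abundant in neurons and red cells, read 1374, 1440, 1440 and 1401 at 8 weeks, against a lowest of 1885, a median of 2189 and a highest of 2345 at 1 week. The 8-week arrays were close together and far below, with a change of -0.60 ± 0.08 (limma adjusted p = 0.000161), and the other Prdx2 probe set fell by 0.44 on the log2 scale. Prdx4, the peroxiredoxin of the endoplasmic reticulum, read 177, 272, 229.9 and 263 at 8 weeks, against a lowest of 323, a median of 388 and a highest of 477 at 1 week. Its ages did not overlap (-0.67 ± 0.13, limma adjusted p = 0.00178), while a dimmer probe set of the x type read 117 to 148 at 8 weeks and 46.6 to 149 at 1 week and did not pass (0.41 ± 0.20). Prdx3, the mitochondrial member, read 567 to 579.9 at 8 weeks and 470.5 to 565 at 1 week, without overlap but by a margin too small to pass (0.09 ± 0.07, limma adjusted p = 0.342). The falls of Prdx2 and Prdx4 were lost on the deposited scale (-0.06 and -0.16) and with spike-in scaling. The adjusted p ran from 3.41e-05 to 0.685 for Prdx2 and from 0.00075 to 0.381 for Prdx4 over the alternatives that tested them. Prdx1, Prdx5 and Prdx6 are not analysed here.

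Red cells carry Prdx2, Cat and Gpx1, and the summed level of the 6 erythrocyte markers on the array ran from 169.8 to 245 at 8 weeks and from 217 to 595 at 1 week. Of these, 1 was bright enough to test, Alas2, the heme synthesis enzyme of red cell precursors, which fell by 0.80 on the log2 scale. The other 5, with the globin genes Hba-a1, Hbb-b2 and Hbb-bh1 among them, were under the filter, and the ranges of the sum overlap. Their part in the falls of Prdx2 and Cat was not tested.

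Of the superoxide dismutases, the extracellular enzyme was the one that changed. Sod3 read 140.4, 164, 128 and 172 at 8 weeks, against a lowest of 72.4, a median of 86.3 and a highest of 111 at 1 week. The ages did not overlap, and the change was 0.66 ± 0.11 (limma adjusted p = 0.000922). A second Sod3 probe set, too dim for the test, read 38.3 to 71.6 at 8 weeks and 6.97 to 25.7 at 1 week. Sod1, the cytosolic copper-zinc enzyme, read 1368, 1563, 1607 and 1624 at 8 weeks, against a lowest of 1200, a median of 1319 and a highest of 1658 at 1 week. Its ages overlapped widely (0.15 ± 0.09, limma adjusted p = 0.213). Sod2, the mitochondrial manganese enzyme, read 828, 829.7, 800.0 and 826 at 8 weeks, against a lowest of 698, a median of 738 and a highest of 835 at 1 week. A single young array reached the older ones, and the change of 0.13 ± 0.07 did not pass (limma adjusted p = 0.152), although another of its 3 probe sets rose (0.40 ± 0.08, limma adjusted p = 0.00224).

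Of 5 genes for thioredoxins and their reductases, 4 were lower at 8 weeks and 0 higher, with a median of -0.37 that turned to 0.09 on the deposited scale. Txn1, cytosolic thioredoxin, read 869, 929.8, 932 and 872 at 8 weeks, against a lowest of 1696, a median of 1772 and a highest of 2029 at 1 week. The mean ± SD was 901 ± 35.1 over the 4 arrays of 8 weeks and 1809 ± 121 over the 6 of 1 week, a change of -0.99 ± 0.07 (limma adjusted p = 4.23e-06). No array came near those of the other age. The dimmer Txn1 probe set showed nothing of this, at 412 to 509 at 8 weeks and 378 to 662 at 1 week (-0.11 ± 0.14, limma adjusted p = 0.528), so the size of the fall rests on 1 probe set.

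Txnrd1, the cytosolic thioredoxin reductase, read 333, 347, 326 and 329 at 8 weeks and 410.0 to 494 at 1 week, without overlap (-0.37 ± 0.07, limma adjusted p = 0.00208). Its second tested probe set did not pass (-0.05 ± 0.14). Txnrd3, the thioredoxin-glutathione reductase known from testis, read 56.3, 59.0, 85.6 and 68.4 at 8 weeks, against a lowest of 100.3, a median of 112 and a highest of 128 at 1 week. The ages stood apart (-0.58 ± 0.09, limma adjusted p = 0.000399), at levels not far above the filter. Txnrd2, the mitochondrial reductase, overlapped between ages through 1 low array of 1 week, at 52.1 to 73.5 at 8 weeks and 69.8 to 117 at 1 week (-0.31 ± 0.10, limma adjusted p = 0.0353). Leaving out any of labelled female replicates 2 and 3 and labelled male replicate 1 of 1 week, or of labelled female replicate 1 and labelled male replicates 1 and 2 of 8 weeks, ended that call, with adjusted p up to 0.136, as did the replicate block (0.0622). Txn2, mitochondrial thioredoxin, was scattered, at 378 to 665 at 8 weeks and 272 to 886 at 1 week, and none of its 3 probe sets passed. On the deposited scale Txnrd1 and Txnrd2 turned to 0.16 and 0.09, below the 0.47 of all probe sets.

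**Figure D3:**
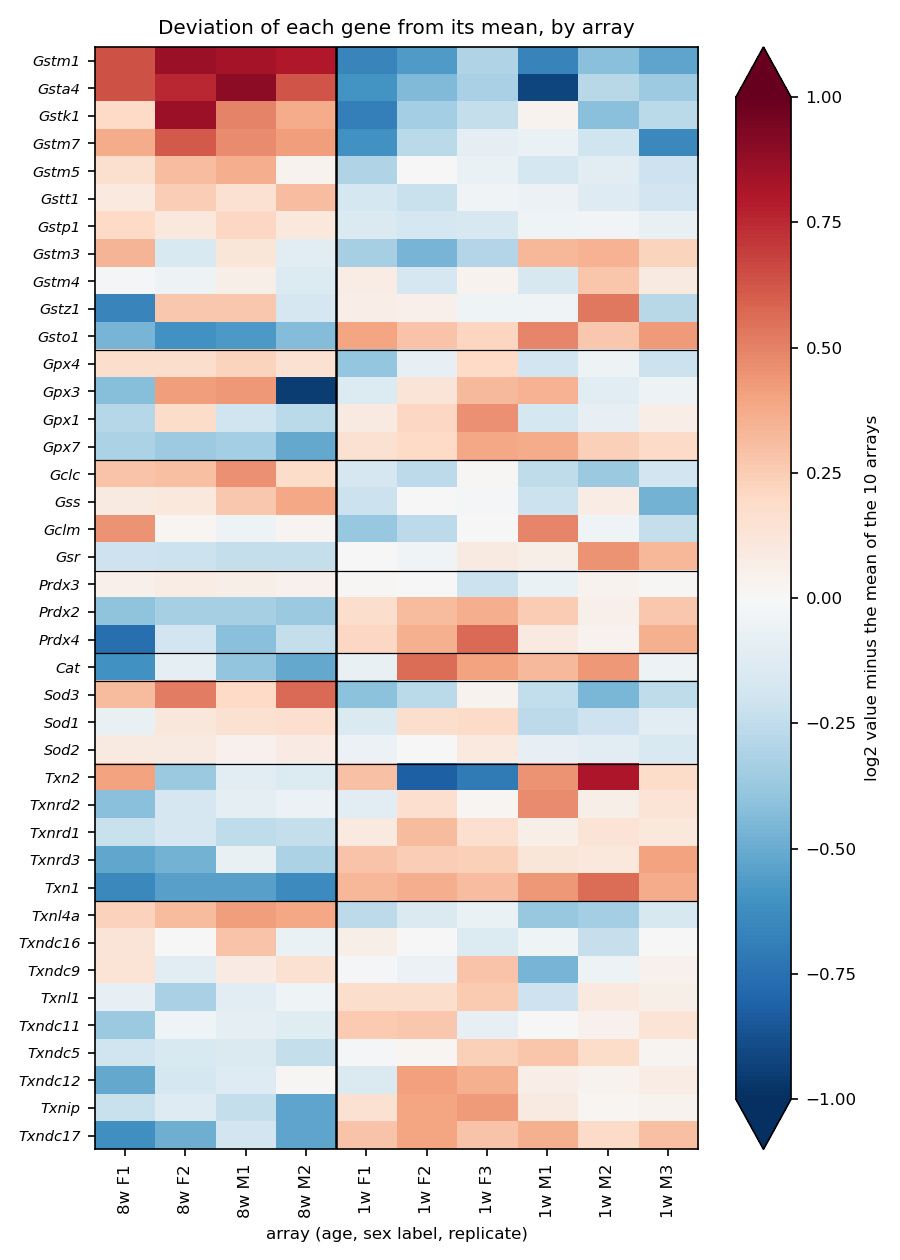
Log2 value of each of the 40 genes minus its mean over the 10 arrays (colour, log2 units, cut at -1 and 1), with arrays in columns, 8 weeks left of the line and 1 week right of it, and genes in rows by family. Blocks of one colour on either side of the line mark genes such as Gstm1 and Txn1, whereas Txn2, Gstm3 and Gclm vary within an age.

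Of 10 genes with other Txn symbols, 9 were tested, and 1 rose, 4 fell and 4 did not pass, with a median of -0.26 that turned to 0.24 on the deposited scale. Txndc17, a small thioredoxin-like protein, read 234, 258, 324 and 249.96 at 8 weeks, against a lowest of 427, a median of 460.3 and a highest of 496 at 1 week. The ages were far apart (-0.76 ± 0.09, limma adjusted p = 7.4e-05), and its 3 tested probe sets fell by 0.59 to 0.76 on the log2 scale. Txnip, which binds and inhibits thioredoxin, read 196, 211, 194 and 154 at 8 weeks, against a lowest of 236, a median of 255 and a highest of 319.9 at 1 week. So on the normalized scale the brighter Txn1 probe set and Txnip were both lower, Txnip by -0.46 ± 0.09 (limma adjusted p = 0.00183) without overlap of the ages. The second Txnip probe set fell too (-0.43 ± 0.13). The Txnip call was lost on the deposited scale (0.026) and with spike-in scaling (-0.29).

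Txndc5, a protein disulfide isomerase of the endoplasmic reticulum, fell in both its probe sets (-0.31 ± 0.08 and -0.26 ± 0.10), and lost its call without labelled male replicate 2 of 8 weeks (adjusted p = 0.0502, and 0.00736 to 0.766 over the alternatives that tested it). Txndc12, another thioredoxin-fold protein of that compartment, read 179 to 268 at 8 weeks and 237 to 361 at 1 week. It overlapped between ages and passed narrowly (-0.33 ± 0.12, limma adjusted p = 0.0447), a call that held in 2 of 10 fits without 1 array, those without labelled female replicate 1 of 1 week or labelled female replicate 2 of 8 weeks. The replicate block ended it too (adjusted p = 0.0648). Txnl4a read 728, 774, 831 and 812 at 8 weeks, against a lowest of 469.9, a median of 531 and a highest of 587 at 1 week. It was the riser of this group, with no overlap (0.56 ± 0.08, limma adjusted p = 0.000231), though a dimmer probe set did not pass (0.13 ± 0.08). Txndc11 (-0.26 ± 0.10, limma adjusted p = 0.0523) missed the threshold and passed without labelled female replicate 3 of 1 week (0.0165) or labelled female replicate 2 of 8 weeks (0.0289), with a range of 0.0165 to 0.683 over the alternatives that tested it. Txndc9 and Txndc16 did not pass, at 0.11 ± 0.12 and 0.14 ± 0.09.

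Txnl1, a thioredoxin-like protein of the proteasome, was read 3 ways. Its brightest probe set ran from 618 to 755 at 8 weeks and from 673 to 939 at 1 week (-0.23 ± 0.09, limma adjusted p = 0.0502), and it passed without labelled male replicate 1 of 1 week (0.0193) or labelled female replicate 1 of 8 weeks (0.0378), with a range of 0.0193 to 0.95 over the alternatives that tested it. A second ran from 249 to 279.9 at 8 weeks and from 292 to 379 at 1 week and fell (-0.39 ± 0.09, limma adjusted p = 0.00451). The last ran from 237 to 319.7 at 8 weeks and from 154 to 275 at 1 week and rose (0.46 ± 0.12, limma adjusted p = 0.00868). Gpx4 and Txnl1 were the members with probe sets called in opposite directions. Probe sets of 1 gene may read different transcript ends, and which of them carried which signal was not tested.

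**Figure D4:**
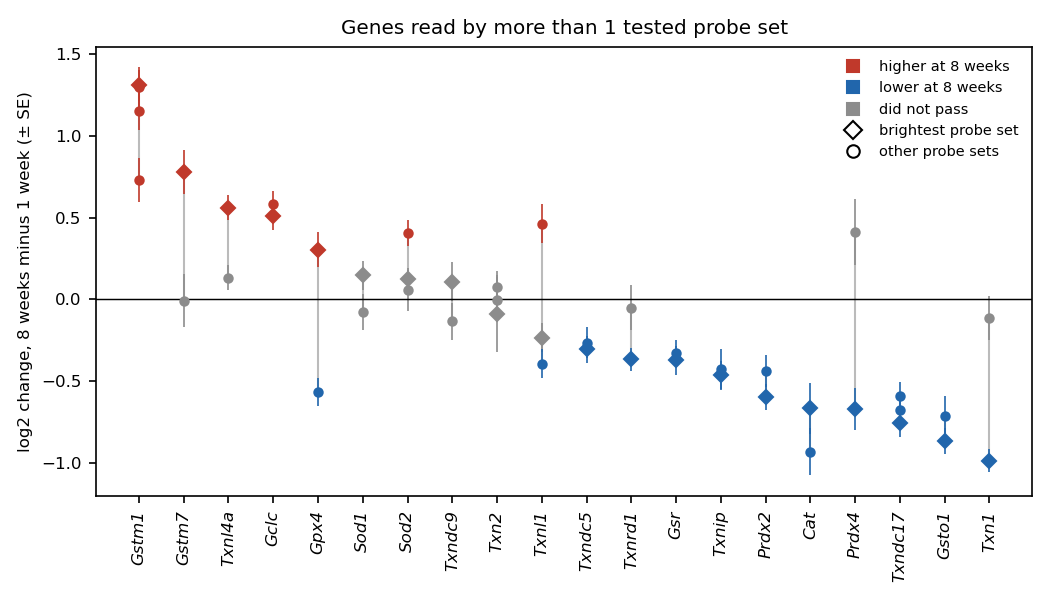
Log2 change with SE (vertical axis) of every tested probe set of the 20 members read by more than 1, with the brightest as a diamond and the others as circles, coloured by the call. The 4 Gstm1 points lie together between 0.73 and 1.31, while the points of Txn1, Gpx4, Prdx4 and Txnl1 lie far apart.

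The remaining 14 members were under the filter, and no change is given for them. They were Gpx2, Gpx5, Gpx6, Gpx8, Gsta2, Gsta3, Gstm2, Gstm6, Gstp3, Gstt2, Gstt3, Txndc8, Nqo1 and Hmox1. Nqo1, the quinone reductase used as a standard readout of NRF2 activity, read 61.6 to 92.5 at 8 weeks and 34.4 to 69.3 at 1 week. Hmox1, inducible heme oxygenase, read 18.4 to 43.0 at 8 weeks and 10 to 54.1 at 1 week. Gstt3 stood at 12.6 to 66.8 at 8 weeks and 3.51 to 13.7 at 1 week, with 2 bright and 2 dim arrays at 8 weeks. The mean log2 value of each of these genes was under the 40th percentile of all probe sets.

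Among arrays labelled female, 10 members were higher and 12 lower (14% and 16% of all genes), and among those labelled male 9 were higher and 11 lower (15.5% and 16.5%). These counts moved with single arrays. For labelled female, the number higher was 3 without replicate 2 and 5 without replicate 1 of 8 weeks, and 6 without replicate 2 of 1 week, and the number lower was 7 without replicate 1 of 8 weeks. For labelled male, it was 4 higher without replicate 1 of 8 weeks, and 5 higher and 5 lower without replicate 2 of 8 weeks. On the deposited scale the counts were 18 higher and 1 lower for labelled female, and 18 and 0 for labelled male. Over both labels, 63.9% of all probe sets were higher and 4.63% lower on that scale. Shares of all genes within a label were not counted in these alternatives, so whether the moves are particular to members was not tested. Txn2, which did not pass, stood at 0.43 in arrays labelled female and -0.60 in those labelled male, and Gclm, which did not pass either, at 0.45 and -0.08. The interaction of age and label, tested with limma, called 0 members and 0 of all 8148 genes. At an unadjusted p under 0.05 it held 2 members, Gstm3 and Sod1, where 406 of all genes, 4.98%, did the same. Gstm3 stood at 0.46 in arrays labelled female and at -0.30 in those labelled male (interaction in limma, adjusted p = 0.857). Sod1 stood at -0.06 in arrays labelled female and 0.35 in those labelled male, with the same adjusted p in limma. Between labels at 8 weeks, where sex transcripts matched them, limma called 0 members and 0 of all 8148 genes. At an unadjusted p under 0.05 it held 1 member, Txnrd3, beside 2.37% of all genes. The sex transcript Xist, at 1676 and 1405 in arrays labelled female and 131 and 134 in those labelled male, was not called. The fit pools the spread of all 4 groups, and at 1 week Xist varied within a label. It read 163, 164 and 866 in labelled female and 293, 1664 and 1422 in labelled male. Its missed call therefore does not measure the contrast for other genes. With 2 arrays of each label at 8 weeks, the contrast cannot show that the labels are alike.

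The pathway around these enzymes was followed with a list of 92 symbols for NRF2 control, cysteine and glutamate transport, glutathione breakdown, NADPH supply and related reductases. Of 72 on the array 60 were tested, and 20 rose, 11 fell and 29 did not pass, so 51.7% were called beside 45.9% of all genes. The steepest rises were Slc1a2, the glutamate transporter of astrocytes (1.06 ± 0.15), Ephx1, the microsomal epoxide hydrolase (1.01 ± 0.08), and Cbr3, a carbonyl reductase (0.94 ± 0.08). They were followed by the aminopeptidase gene Lap3 (0.81 ± 0.09), by Oplah, the 5-oxoprolinase that returns glutamate at the end of the glutathione cycle (0.80 ± 0.14), and by Srxn1, the sulfiredoxin that repairs overoxidised peroxiredoxins (0.74 ± 0.11). Srxn1 rose while Prdx2, known as one of its substrates, fell.

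The steepest fall of that list was in Idh1, the cytosolic NADPH-producing isocitrate dehydrogenase, which read 243 ± 73.2 over the 4 arrays of 8 weeks and 1403 ± 107 over the 6 of 1 week (mean ± SD), a change of -2.46 ± 0.16 in limma. Pgls, of the pentose phosphate pathway, fell by 0.97 on the log2 scale and Me1, malic enzyme, by 0.47. Bach2 and Bach1, repressors that compete with NRF2 for its sites, fell by 1.03 and 0.66 on the log2 scale. Mgst3, a membrane transferase outside the rule, fell (-0.77 ± 0.08). Nfe2l2, the gene of NRF2, named after its value was seen, rose by 0.36 ± 0.07 (limma adjusted p = 0.00224).

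Other cell types changed with age in the same arrays. The summed level of 9 astrocyte markers ran from 14047 to 15271 at 8 weeks and from 6913 to 9841 at 1 week, with 4 markers higher and 1 lower, beside the rises of Gstm1 and Gclc. Slc1a2 is itself one of the 4, and the sum was carried mostly by Aldoc, at 5681 on average at 8 weeks and 1968 at 1 week, and Glul, at 3002 at 8 weeks and 1008 at 1 week. The astrocyte marker that fell was Aldh1l1 (-0.80 ± 0.13). Gfap, a defining astrocyte marker, was 921.6 on average at 8 weeks and 920.5 at 1 week. It did not pass, nor did Aqp4 (0.04), Gja1 (0.12) and Slc1a3 (-0.04). Oligodendrocyte markers, 8 on the array with 5 higher and 0 lower, summed to between 14115 and 18370 at 8 weeks and between 2391 and 11499 at 1 week. Immature neuron markers, 5 of 5 lower, summed to between 3679 and 4111 at 8 weeks and between 12847 and 16306 at 1 week, beside the falls of Txn1, Gsto1 and Prdx2. Microglial markers, 6 of 7 tested higher, summed to between 3143 and 4187 at 8 weeks and between 2384 and 2835 at 1 week. Meningeal and fibroblast markers, 4 of 6 tested lower, summed to between 1203 and 1568 at 8 weeks and between 2805 and 10563 at 1 week, beside the falls of Prdx4, Gpx7 and Txndc5. Their part in the changes of the enzymes was not tested.

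Pituitary markers, 2 of 4 tested higher, ran from 1056 to 13537 at 8 weeks and from 331 to 2695 at 1 week. Prl and Gh were highest in labelled female replicate 1 of 8 weeks. Cerebellar neuron markers, 4 of 5 higher, ran from 3467 to 13249 at 8 weeks and from 1310 to 3661 at 1 week, and choroid plexus markers, 0 of 2 tested called, from 4011 to 9053 at 8 weeks and from 5041 to 6286 at 1 week. Endothelial markers, 2 higher and 3 lower of 8, ran from 1613 to 1770 at 8 weeks and from 1446 to 1815 at 1 week, and mature neuron markers, 4 of 5 higher, from 8281 to 9092 at 8 weeks and from 4178 to 4525 at 1 week. No marker of any list was listed at 0 in any array, the lowest value being 1.25. Their part in the changes of the enzymes was not tested.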

How the data were processed

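The 10 Affymetrix MOE430A arrays of C57BL/6 brain were deposited as linear intensity values, with probe sets in rows and arrays in columns, and all columns were used. The software with which the authors summarised the probes was not given in the sources used here. Of 22690 probe sets 64 were array controls and were left out. Symbols came from the array annotation: 20380 probe sets had 1 symbol, 691 several and 1555 none, and members needed a single symbol.

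Arrays were quantile-normalized, and log2 was taken after adding 24, the pseudocount, which is the 20th percentile of the deposited intensities. A probe set was tested if its mean log2 value reached the 40th percentile. The 4 groups of age and sex label each had a coefficient in a linear model of all arrays (limma 3.58.1 in R 4.3.3, lmFit and eBayes). Tests were two-sided, with Benjamini-Hochberg adjustment over all probe sets tested. The age difference was taken as the average of both labels and within each, with their interaction and labelled male minus labelled female at 8 weeks. The scripts were tested on simulated data.

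The members, the families, the pathway list and the marker lists (erythrocytes, astrocytes, oligodendrocytes, microglia, endothelium, meninges and fibroblasts, choroid plexus, pituitary, immature, mature and cerebellar neurons) were chosen with earlier results of these data known. Array values were given for the 10 largest rises and 10 largest falls among called members and for Sod1, Sod2, Cat, Gsr, Gclc, Gclm, Gpx1, Gpx4, Txn1 and Gstp1. Of the pathway list the 6 largest rises and 6 largest falls were named. Alternatives were other pseudocounts, filters, scalings and models, each array left out, a replicate block, and another probe set per gene.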

Additional observations from a re-analysis of the deposited data

Results flagged for a closer look

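In each age the highest and the lowest array of every tested gene were set against the others, and an array whose gap to the nearest one took up most of the range was noted. Of 80 such groups 5 held such an array, and chance gives about 1 in 20. Gclm had one at both ages. At 8 weeks it read 284 in labelled female replicate 1, with the other arrays between 194 and 206, and at 1 week it read 292 in labelled male replicate 1, with the others between 149 and 202. Gpx1 read 757 in labelled female replicate 2 of 8 weeks, above the 542 to 577 of the other arrays of that age. Sod2 read 800.0 in labelled male replicate 1 of 8 weeks, where the other arrays lay between 826 and 829.7. Gstz1 read 144 in labelled male replicate 2 of 1 week, and 72.2 to 97.5 in the others.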

How the results depend on the processing

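Scaling moved the counts most. On deposited values without normalization, with a median of 0.47 over all probe sets and 0.42 over members, 20 member genes were higher and 2 lower, 35 and 3 of member probe sets, and 8673 and 629 of all probe sets; within arrays labelled female 18 genes were higher and 1 lower, and within those labelled male 18 and 0. Sign turned there for Gsr (0.13), Txnrd1 (0.16), Txnrd2 (0.086), Txnip (0.026), Txndc5 (0.24) and Txndc12 (0.18), and for the uncalled Txndc11 (0.15), Txnl1 (0.32), Txn2 (0.44), Gpx1 (0.32), Gpx3 (0.29), Gstm4 (0.40) and Gstz1 (0.29). With spike-in scaling, added after seeing the data, 4 genes and 7 probe sets of the members were lower and 9 and 16 higher, 2688 and 1013 of all probe sets were higher and lower, and Gstm4 (0.091), Gstz1 (0.0068) and Txn2 (0.10) turned. A filter at the 60th percentile left 28 genes, of which 7 were higher and 12 lower. Of the 28, 27 were called as before, 0 lost a call and Txnl1 gained one, so the other risers were genes that the filter left out. Of all 9051 probe sets tested there, 2246 were higher and 2520 lower. Age alone without the 4 arrays whose sex transcripts opposed their label gave 7 genes higher and 12 lower, 2069 and 1973 of all probe sets, and turned Gclm (-0.13), Gstm4 (0.027) and Txn2 (0.075). Array weights turned Txn2 (0.016). With the probe set of median change, 9 genes were higher and 12 lower, and Prdx4 (0.41), Gpx4 (-0.57), Gstm7 (-0.0072), Sod1 (-0.076) and Txndc9 (-0.13) turned. Apart from the loss of genes to the filter, the cause of these moves was not tested. Without 1 array at a time, 10 to 12 member genes were higher and 11 to 16 lower, 16 to 19 and 20 to 27 probe sets, 2480 to 2936 and 2729 to 3126 of all probe sets; within labelled females 3 to 9 and 7 to 12 genes, and within labelled males 4 to 12 and 5 to 11. The same fits gave -0.28 to 0.11 for Txn2, -0.044 to 0.21 for Gstm3, -0.35 to 0.11 for Gstz1 and -0.56 to 0.13 for Gpx3, all uncalled in the fit of all arrays. The calls for Gstm1, Gsta4, Gclc and Gsto1 held in every alternative, and those for Gstk1 and Sod3 in every one but the 60th-percentile filter, which left these genes out.

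With the replicate number as a block, 11 member genes were higher and 12 lower, and 17 and 20 probe sets, and the calls for Gss (adjusted p = 0.0507), Txnrd2 (0.0622) and Txndc12 (0.0648) were lost. Arrays of the same number correlated by -0.03 to 0.19 in their deviations from group means and those of different numbers by -0.18 to 0.18. Of 10 arrays, 8 correlated best with one of their own number. In a group of 2 arrays the deviations mirror each other, so these values are not independent, and no chance level was worked out. Whether arrays of the same number share something was therefore not tested. The labels do not say that a number marks a shared litter or day, and not every pair of the same number was over 0.1, so the samples were not treated as pairs.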
